A study of Mus musculus with 8 samples.

Results

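The genes for 8 MHC class I heavy chains, together with B2m and Tap1, were followed across LT-HSC libraries from asrij floxed and asrij KO mice. They are H2-K1, H2-D1, H2-Q4, H2-Q6, H2-Q7, H2-T22, H2-T23 and H2-M3, and all 10 genes were taken by symbol from the 39107 genes with a count. All 10 were among the 21902 genes that passed the filter on low counts. The libraries were made from total RNA of sorted bone marrow cells labelled as LT-HSCs, the cells that can rebuild blood over the long term. The 4 control mice carried floxed, undeleted asrij (replicates 1, 3, 4 and 5), and the 4 KO mice (replicates 2, 3, 4 and 5) were whole-body knockouts by the study's methods, so the deletion was not limited to HSCs. The labels give all mice an age of 6 months, and the study's methods describe 1 mouse for each library, animals of both sexes and a sort for LSK CD150+ CD48+ cells, while LT-HSCs are usually sorted as CD48-.

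Class I molecules show peptides from inside the cell to CD8 T cells and to NK cell receptors. Each is a heavy chain paired with the light chain beta-2 microglobulin (B2m), and the transporter TAP, of which Tap1 is one chain, carries peptides from the cytosol into the endoplasmic reticulum where the pair is loaded. H2-K1 and H2-D1 encode the classical heavy chains and the Q, T and M genes the non-classical ones. Interferons and NLRC5 raise the transcription of these genes, and HSCs carry class I on their surface. In the mouse, all but B2m lie in the major histocompatibility complex, where inbred strains differ in sequence and gene number.

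The targeted gene was measured first. Ociad1, the gene name of asrij, had 41.6, 66.9, 36.7 and 31.3 CPM (gene counts after scaling each library by its TMM factor) in the floxed libraries 1, 3, 4 and 5. In the KO libraries 2, 3, 4 and 5 it had 15.2, 19.7, 12.5 and 11.7 CPM. The groups did not overlap, the KO libraries still held 322 to 758 counts on the gene, and the log2 fold change of KO against floxed was -1.58 ± 0.27 (SE, adjusted p = 0.0249, edgeR). Without floxed replicate 1, KO replicate 2, KO replicate 4 or KO replicate 5 the adjusted p was 0.0759, 0.0825, 0.0881 and 0.0871.

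The labelled cell type and other cell types were checked against marker genes. Of the LT-HSC markers Kit was at 46.8 to 60.2 CPM, while Procr was at 0.142 to 0.962 CPM, Fgd5 at 0.158 to 1.09 CPM and Hoxb5 too low to be tested. S100a9, a neutrophil gene, was at 4751 to 13083 CPM. Several defining markers of LT-HSCs were thus near 0 in every library, and the cells are called LT-HSCs here by their label. The summed erythroid markers were at 27520 to 69330 CPM in floxed and 121400 to 294200 CPM in KO libraries, with 3 of 9 tested called higher in KO. Called means an adjusted p under 0.05 in edgeR, which 2.97% of all genes tested had. The platelet and megakaryocyte markers were at 61.7 to 127 CPM in floxed and 202 to 242 CPM in KO libraries, with 4 of 5 called higher. Summed T and NK cell markers (76.2 to 99.8 against 57.4 to 63.4 CPM, 1 of 10 called lower in KO) and plasma cell markers (215 to 363 against 179 to 186 CPM, 2 of 7 called lower) moved the other way. Not every gene of these lists followed its sum. The plasma cell marker Mzb1 was at 7.73 to 11.1 CPM in floxed and 13.2 to 14.3 CPM in KO libraries. Cd4 was at 8.02 to 9.70 CPM in floxed and 9.79 to 13.2 CPM in KO libraries. Neutrophil markers summed to 43050 to 49130 CPM in 3 floxed libraries, 15790 CPM in floxed replicate 3 and 23560 to 29950 CPM in KO libraries, with 0 of 9 called. Macrophage and dendritic cell markers summed to 667 to 865 CPM in floxed libraries, lowest in replicate 3. In KO libraries they summed to 790 to 908 CPM, with 0 of 10 called. Summed B cell markers were at 322 to 367 CPM in 3 floxed libraries, 625 CPM in floxed replicate 3 and 539 to 593 CPM in KO libraries, with 1 of 8 called higher. Their part in the class I values below was not tested, and in sorted bulk RNA a change in the mix of cells and a change of RNA per cell cannot be told apart.

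The heavy chain genes are alike in sequence, which bears on how reads are assigned. Coding sequences of H2-Q6 and H2-Q7 were identical at 95.5% of aligned bases, those of H2-K1 and H2-D1 at 91.5%, and those of H2-T22 and H2-M3 at 69.3%. A 90-base stretch of exon 3 shows this, from GENCODE M21 transcripts (GRCm38). It covers coding bases 361 to 450 of H2-Q6 (chr17:35425597-35425686, plus strand), of H2-Q7 (chr17:35439935-35440024, plus strand) and of H2-K1 (chr17:33999431-33999520, minus strand), and 370 to 459 of H2-D1 (chr17:35263865-35263954, plus strand). Capitals mark bases that differ from H2-Q6, 2 in H2-Q7, 4 in H2-D1 and 8 in H2-K1.
H2-Q6: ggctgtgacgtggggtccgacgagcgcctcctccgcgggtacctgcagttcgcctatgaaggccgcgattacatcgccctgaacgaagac
H2-Q7: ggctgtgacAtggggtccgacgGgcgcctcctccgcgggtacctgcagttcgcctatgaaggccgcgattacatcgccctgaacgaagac
H2-D1: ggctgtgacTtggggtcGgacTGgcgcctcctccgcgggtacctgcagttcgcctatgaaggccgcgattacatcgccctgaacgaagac
H2-K1: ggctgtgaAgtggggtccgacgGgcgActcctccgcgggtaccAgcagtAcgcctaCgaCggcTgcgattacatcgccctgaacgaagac

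Over the whole transcripts used, 58.5% of the 50-base stretches of H2-T22 also occurred in another gene, most often H2-T10. The share was 36.9% for H2-Q4, 35.0% for H2-Q6, 29.8% for H2-T23, 28.5% for H2-Q7, 14.3% for H2-D1, 8.79% for H2-K1, 6.47% for Tap1, 0.576% for H2-M3 and 0 for B2m. Overlaps on the genome add to this. A transcript of Patl2 covers all 5398 bases of B2m, the antisense gene A930015D03Rik covers 2880 bases of H2-T23 and 1308 bases of H2-T22, Gm11131 covers 676 bases of H2-Q4 and Psmb9 covers 212 bases of Tap1. How the authors' counting split such reads is not given in the sources used here, so the values of H2-Q4, H2-Q6, H2-Q7, H2-T22, H2-T23 and B2m are uncertain to that extent.

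The promoters share short elements. RefSeq start sites (GRCm38.p6) were found for all 10 genes, and 300 bases, from 250 before to 50 after the start, were searched on both strands. Enhancer A, the NF-kB site of class I genes, was searched as GGGGATTCC, the interferon-stimulated element as GAAANNGAA or GAANNGAAA, the X2 box bound by CREB and ATF factors as TGACG, and the NF-Y box as CCAAT. GGGGATTCC was found in 4 of 10 members (H2-K1, H2-D1, H2-Q6 and H2-Q7) and in 0.250% of 32851 promoters. GAAANNGAA was found in 3 of 10 (H2-T22, H2-T23 and B2m) and in 8.56% of all promoters, TGACG in 8 of 10 against 20.8%, and CCAAT in all 10 against 37.4%. GAANNGAAA was added after the members' sequences had been seen, and the 9 of 10 members with either spelling (14.8% of all promoters) are therefore a description only. The windows below run from 5 bases before the first enhancer A or interferon element and end at or before the start site. They are shown because the elements lie close together there, with matches in capitals that do not overlap each other. H2-K1, H2-D1, H2-Q7 and B2m have TGACG before the first NF-Y box, written there on its other strand, H2-Q4 has them the other way round, and the windows of H2-Q6 and H2-T23 hold no TGACG. They lie at chr17:34000348-34000463 on the minus strand (H2-K1), at chr17:35262918-35263052 (H2-D1), chr17:35379459-35379593 (H2-Q4), chr17:35424672-35424806 (H2-Q6) and chr17:35439017-35439151 (H2-Q7) on the plus strand, at chr17:36032702-36032829 on the minus strand (H2-T23) and at chr2:122147543-122147677 on the plus strand (B2m).
H2-K1: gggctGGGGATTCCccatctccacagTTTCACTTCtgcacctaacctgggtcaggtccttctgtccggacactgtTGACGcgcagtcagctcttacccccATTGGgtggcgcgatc
H2-D1: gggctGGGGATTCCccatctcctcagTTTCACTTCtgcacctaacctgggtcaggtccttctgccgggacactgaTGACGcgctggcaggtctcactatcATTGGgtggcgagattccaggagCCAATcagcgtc
H2-Q4: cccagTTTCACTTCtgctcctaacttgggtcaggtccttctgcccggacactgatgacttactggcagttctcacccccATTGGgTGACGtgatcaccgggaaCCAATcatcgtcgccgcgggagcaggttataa
H2-Q6: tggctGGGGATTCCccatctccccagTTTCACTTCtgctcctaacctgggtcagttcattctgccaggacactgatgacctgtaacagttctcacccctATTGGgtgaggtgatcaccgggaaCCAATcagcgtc
H2-Q7: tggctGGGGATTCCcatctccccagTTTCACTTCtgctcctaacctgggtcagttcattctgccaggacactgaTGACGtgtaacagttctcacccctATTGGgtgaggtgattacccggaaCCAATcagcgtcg
H2-T23: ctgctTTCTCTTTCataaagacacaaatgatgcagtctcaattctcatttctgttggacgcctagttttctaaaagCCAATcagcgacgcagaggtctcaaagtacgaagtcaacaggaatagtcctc
B2m: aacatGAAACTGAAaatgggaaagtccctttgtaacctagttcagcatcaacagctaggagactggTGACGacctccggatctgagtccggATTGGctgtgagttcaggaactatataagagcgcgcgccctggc

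Levels of different members were compared per length, as CPM per kb of the spliced protein-coding transcript, over the 8 libraries. The counts behave as if they cover whole spans with introns, as given under processing, while the length used is the spliced one. B2m, for example, has 860 spliced bases in a span of 5398, and Patl2, which covers it, had 154757 counts beside 152746. The order below is thus one of counts per spliced length and need not be that of mRNA levels. B2m was at 652 ± 173 CPM per kb (SD, n = 8), H2-D1 at 486 ± 183 and H2-K1 at 309 ± 57.7 CPM per kb. H2-T23 followed at 113 ± 35.3 CPM per kb, then H2-Q4 at 59.6 ± 13.8, H2-Q6 at 42.1 ± 17.3, H2-Q7 at 35.6 ± 13.0, Tap1 at 33.7 ± 5.77 and H2-T22 at 25.5 ± 3.33. H2-M3, which presents N-formylated peptides of bacteria and mitochondria, was the lowest at 6.92 ± 0.823 CPM per kb. B2m was above H2-D1 in 5 of 8 libraries only, and H2-Q6 above H2-Q7, and H2-Q7 above Tap1, in 6 of 8 each, so these neighbours do not differ beyond their spread. H2-K1 was above H2-T23, Tap1 above H2-T22 and H2-T22 above H2-M3 in all 8 libraries.

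Whether loss of asrij changed these genes was tested with edgeR's quasi-likelihood test over all 21902 genes. Of the 10 members 0 had an adjusted p under 0.05, against 2.97% of all genes tested, and 0 passed the study's additional limit of an absolute log2 fold change above 1.5, against 1.19%. At an unadjusted p under 0.05 the count was also 0 (21.8% of all genes), and DESeq2 called 0 by adjusted p (11.2%), as did edgeR with library totals only (4.15%) and with sums over transcripts (2.79%). The groups overlapped for every member, while they did not overlap for 14.8% of all genes. The fold change was above 0 for 9 members and below 0 for B2m, while it was above 0 for 49.6% of all genes tested. The median was 0.24 on the log2 scale beside -0.0058 over all genes tested. Without floxed replicate 3, H2-D1 (-0.05) and Tap1 (-0.0013) were below 0 too. The members share sequence, and all but B2m lie in one segment, so their directions are not independent. The 95% intervals, drawn in the plot of fold changes, reach beyond 1 log2 unit for H2-D1, H2-Q6, H2-Q7 and H2-T23, so increases of that size in these genes could not be told from 0 with 4 mice a genotype.

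**Figure D1:**
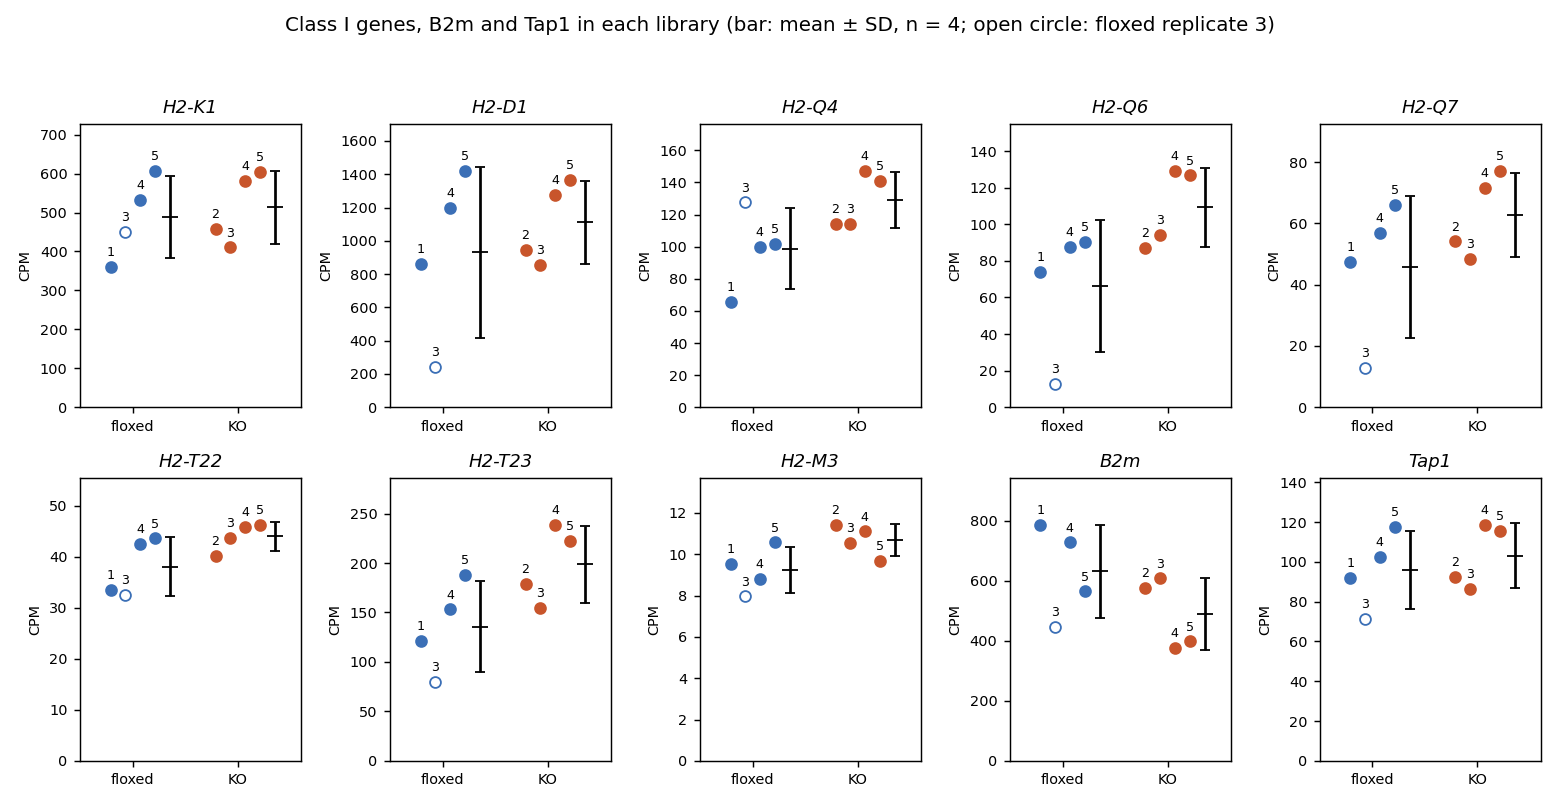
CPM of each of the 10 genes (vertical axes, from 0) in the 4 floxed and 4 KO libraries, with the replicate number above each point and the mean ± SD at the side. The open circle is floxed replicate 3, which sits far below all other libraries for H2-D1, H2-Q6 and H2-Q7, and the 2 genotypes overlap in every panel.

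The classical heavy chains differed by less than the spread within a genotype. H2-K1 was at 361, 451, 532 and 606 CPM in floxed libraries 1, 3, 4 and 5 and at 457, 410, 580.2 and 604 CPM in KO libraries 2, 3, 4 and 5. Libraries 4 and 5 were the highest in both genotypes, by 0.49 (floxed) and 0.45 (KO) on the log2(CPM + 1) scale over the others. The log2 fold change was 0.07 ± 0.22 (SE, 95% interval -0.42 to 0.57, adjusted p = 0.882, edgeR). H2-D1 was at 863, 244, 1196 and 1419 CPM in floxed and at 944, 857, 1277 and 1368 CPM in KO libraries. Floxed replicate 3 was the only library under 857 CPM, and the other 3 floxed libraries spanned about the range of the KO libraries. The log2 fold change of H2-D1 was 0.26 ± 0.45 (95% interval -0.75 to 1.26, adjusted p = 0.789) with all libraries and -0.05 ± 0.23 (-0.58 to 0.48, adjusted p = 0.905) without floxed replicate 3.

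The 3 members among the Q genes had higher means in KO libraries, and none passed the test. H2-Q4, which encodes a class Ib heavy chain, was at 65.8, 128, 100.1 and 102 CPM in floxed and 114, 114, 147 and 141 CPM in KO libraries. Its floxed replicate 3 lay within the KO range, unlike that of its neighbours. Without that library the genotypes did not overlap, but no share of all genes is given for 3 against 4 libraries. The log2 fold change of H2-Q4 was 0.38 ± 0.21 (95% interval -0.09 to 0.85, adjusted p = 0.327), and 0.54 ± 0.19 (0.11 to 0.97, adjusted p = 0.0869) without floxed replicate 3. The fit without that library called 17.5% of all genes. H2-Q6 and H2-Q7 encode Qa-2 antigens, non-classical class I molecules that can be held in the membrane by a lipid anchor. H2-Q6 was at 73.9, 12.9, 87.8 and 90.2 CPM in floxed and 87.1, 94.2, 129 and 127 CPM in KO libraries. Its log2 fold change of 0.72 ± 0.48 was the largest of the 10 (95% interval -0.35 to 1.79, adjusted p = 0.418) and was 0.39 ± 0.17 (-0.0096 to 0.79, adjusted p = 0.171) without floxed replicate 3. H2-Q7 was at 47.3, 12.8, 56.9 and 66.1 CPM in floxed and 54.1, 48.5, 71.5 and 77.0 CPM in KO libraries. For H2-Q7 the log2 fold change went from 0.46 ± 0.41 (95% interval -0.47 to 1.38, adjusted p = 0.569) to 0.15 ± 0.20 (adjusted p = 0.645) without that library.

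Among the T and M genes, H2-T23 had the smallest edgeR p of the 10. H2-T23 encodes Qa-1, which shows leader peptides of other class I chains to the CD94/NKG2 receptors of NK cells. It was at 121, 79.8, 153 and 188 CPM in floxed and 179, 154, 239 and 223 CPM in KO libraries. At each pair of libraries with a shared number the KO library was higher, by 0.94 (number 3), 0.64 (number 4) and 0.24 (number 5) on the log2(CPM + 1) scale. The same held for H2-Q6 (2.78, 0.55 and 0.49), H2-Q7 (1.85, 0.32 and 0.22) and H2-T22 (0.41, 0.11 and 0.08), but for none of the remaining members. Libraries with a shared number come from different mice. Their deviations from the genotype means correlated across genes at a mean r of 0.529, against 0.532 for other numbers on the same side of 4 and 5. The agreement of these pairs is therefore a description only, and number 3 includes floxed replicate 3. No share of all genes with such agreement is given to set beside it. The log2 fold change of H2-T23 was 0.55 ± 0.27 (95% interval -0.05 to 1.15, unadjusted p = 0.0663, adjusted p = 0.263, edgeR). For H2-T23 the exact permutation test over 70 labelings gave p = 0.114, where 0.0286 is the smallest possible. The same exact permutation test gave p = 0.0857 for each of H2-Q4, H2-Q6 and H2-M3. A term for the libraries numbered 4 and 5, which stand together in both genotypes, brought the adjusted p of H2-T23 to 0.0358 at a log2 fold change of 0.58 ± 0.16, in an edgeR fit that called 18.5% of all genes. H2-T22, a ligand of some gamma delta T cell receptors, was at 33.6, 32.6, 42.5 and 43.6 CPM in floxed and 40.1, 43.7, 45.9 and 46.3 CPM in KO libraries. H2-M3 was at 9.55, 7.96, 8.80 and 10.6 CPM in floxed and 11.4, 10.6, 11.1 and 9.67 CPM in KO libraries. Both differed little, by 0.21 ± 0.15 (H2-T22, adjusted p = 0.457) and 0.21 ± 0.16 (H2-M3, adjusted p = 0.485) on the log2 scale, with upper interval limits of 0.55 and 0.58.

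B2m, the light chain of every class I molecule, was the one member with a lower mean in KO libraries. It was at 787, 445, 728 and 565 CPM in floxed and 577, 608, 377 and 398 CPM in KO libraries. The lower KO values were those of libraries 4 and 5, where the floxed libraries did not overlap with them, whereas floxed replicates 1 and 3 lay on both sides of KO replicates 2 and 3. The log2 fold change of B2m was -0.37 ± 0.25 (95% interval -0.93 to 0.20, adjusted p = 0.438), and -0.49 ± 0.21 (-0.98 to 0.0008, adjusted p = 0.161) without floxed replicate 3. Without floxed replicate 1 it was -0.23 (adjusted p = 0.752), and without KO replicate 4 or KO replicate 5 it was -0.24 or -0.26. Tap1 was at 91.8, 71.5, 102 and 118 CPM in floxed and 92.3, 86.2, 119 and 115 CPM in KO libraries, with a log2 fold change of 0.11 ± 0.19 (95% interval -0.32 to 0.53, adjusted p = 0.794).

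**Figure D2:**
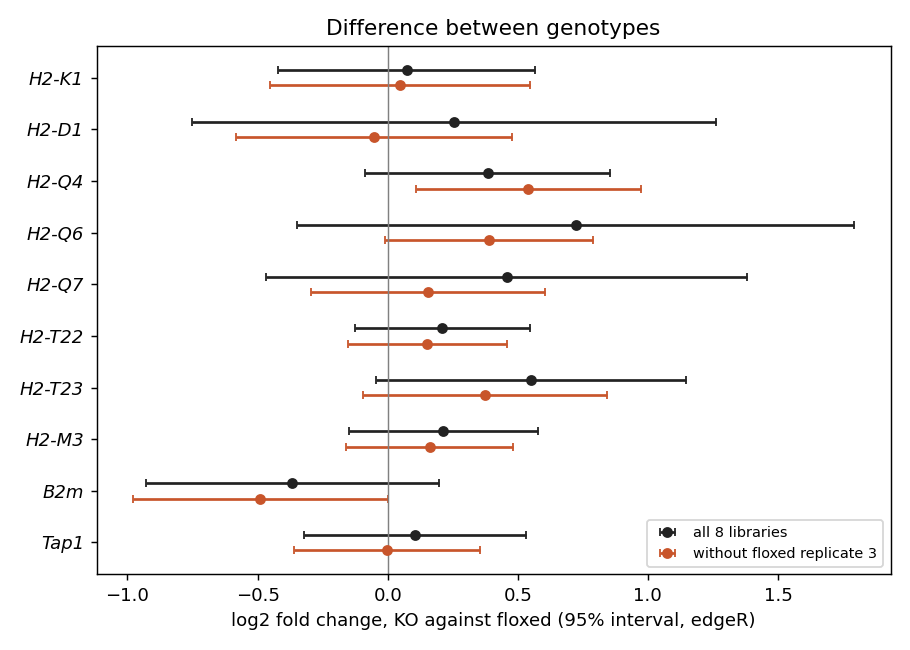
Log2 fold change of KO against floxed for the 10 genes with 95% intervals from edgeR, for all 8 libraries (black) and without floxed replicate 3 (orange). Every black interval crosses 0, and leaving out floxed replicate 3 narrows those of H2-D1, H2-Q6 and H2-Q7 most and leaves that of H2-Q4 above 0, at an adjusted p of 0.0869.

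A ratio of 2 genes in the same library does not depend on how libraries are scaled. The sum of H2-K1 and H2-D1 divided by B2m was 1.56, 1.56, 2.37 and 3.58 in floxed and 2.43, 2.09, 4.93 and 4.96 in KO libraries. KO libraries 4 and 5 had the highest ratios, and KO libraries 2 and 3 lay within the floxed range. The mean ratio was 2.27 ± 0.958 for floxed and 3.60 ± 1.56 for KO mice (SD, n = 4), and no test was made because the ratio was formed after the values had been seen. H2-K1 and H2-D1 together made up 71.7% to 80.2% of the summed CPM of the 8 heavy chain genes in every library. The ratio of H2-D1 to H2-K1 was 0.540 in floxed replicate 3 and 2.06 to 2.39 in the other 7 libraries.

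**Figure D3:**
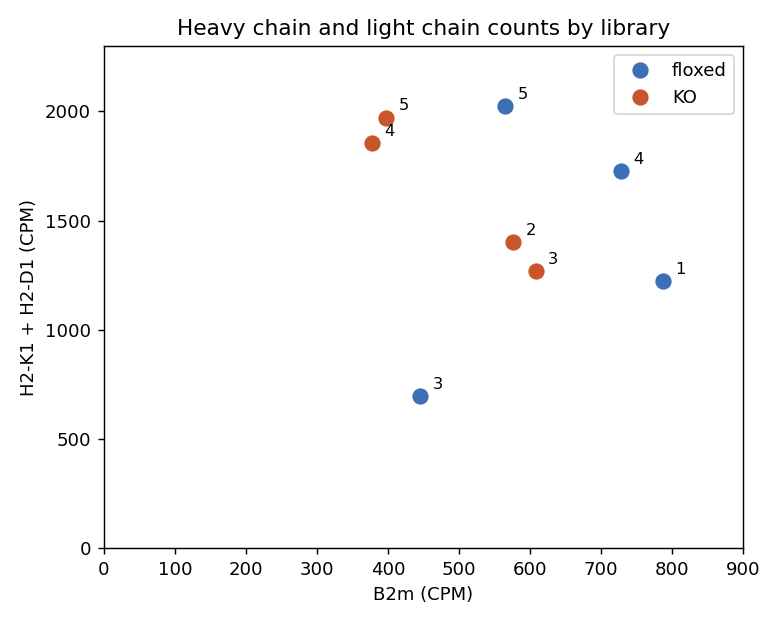
Summed CPM of the classical heavy chain genes H2-K1 and H2-D1 (vertical axis) against CPM of B2m (horizontal axis), 1 point for each library with its replicate number, floxed in blue and KO in orange. KO libraries 4 and 5 sit at the upper left with B2m at 377 and 398 CPM, and floxed replicate 3 is the lowest point.

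Floxed replicate 3 stood apart across the chromosome segment that holds the class I genes. The segment from H2-K1 to H2-M3 (chr17:33996017-37274484) held 167 tested genes, and it was chosen after the values of the members had been seen. In floxed replicate 3, 12 of these genes (7.19%) lay at least 1 log2(CPM + 1) unit outside the range of the other 7 libraries, 3 above and 9 below. Of all genes tested 1.24% did so (142 above and 130 below). The 12 include H2-D1, H2-Q6 and H2-Q7, whose values were known when the segment was chosen, so the share is a description only. In each of the other 7 libraries the count in the segment was 0, and over all genes it was 34 in floxed replicate 1 and at most 6 elsewhere. The members below were H2-D1, H2-Q6 and H2-Q7, at 244, 12.9 and 12.8 CPM where the other libraries began at 857, 73.9 and 47.3 CPM. H2-Q5, another Q gene, was below too (2.86 against 16.4 to 23.9 CPM). The remaining genes below were H2-Ke6, H2-DMa, BC051142, Ager and Ier3, and those above were Msh5 (59.2 against 5.41 to 8.95 CPM), Gm8909 (11.9 against 0.425 to 2.5 CPM) and Btnl2 (9.48 against 2.03 to 2.89 CPM). H2-T23 (79.8 against 121 to 239 CPM), Tap1 (71.5 against 86.2 to 119 CPM), H2-T22 (32.6 against 33.6 to 46.3 CPM) and H2-M3 (7.96 against 8.80 to 11.4 CPM) were also lowest in this library, by less than 1 unit, and H2-K1 and H2-Q4 lay within the range of the other libraries. B2m, on chromosome 2, was within the range of the other libraries. What sets this library apart was not tested.

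**Figure D4:**
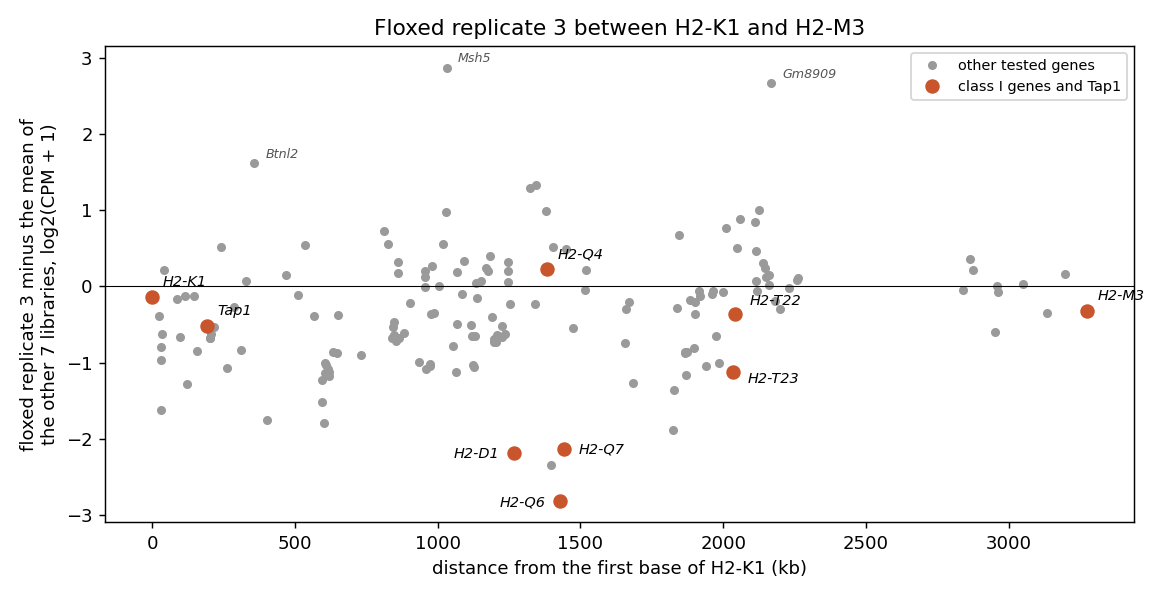
Difference between floxed replicate 3 and the mean of the other 7 libraries, in log2(CPM + 1) units (vertical axis), for the 167 tested genes between H2-K1 and H2-M3, by distance in kb from the first base of H2-K1 (horizontal axis). H2-D1, H2-Q6 and H2-Q7 (orange) lie at -2.18, -2.81 and -2.13, close to genes with differences around 0, and Msh5 and Gm8909 lie at 2.87 and 2.66.

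Genes that act with the members were taken from 5 lists, 55 of whose 70 genes were tested. With all libraries, 0 of the 55 had an adjusted p under 0.05 in edgeR, 12 had an unadjusted p under 0.05 (5 higher and 7 lower in KO, beside 21.8% of all genes), and DESeq2 called 4 by adjusted p (11.2% of all genes). The median log2 fold changes were -0.13 for 7 peptide loading genes, 0.06 for 8 peptide supply genes, -0.16 for 24 regulators, 0.10 for 9 class I-like genes and 0.11 for 7 other H2 class I genes. Without floxed replicate 3, 6 of the 55 had an adjusted p under 0.05 (17.5% of all genes), of which 5 were lower in KO, the interferon receptor chains Ifngr1, Ifngr2 and Ifnar1 and the kinases Jak1 and Tyk2 that bind such receptors, and 1 was higher, Cd1d1, which presents lipids. These 6 were named after their values had been seen, other than Jak1.

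The regulators with the smallest p were Jak1 and Irf7. Jak1, the kinase of both type I and type II interferon receptors, was at 262, 198, 197 and 193 CPM in floxed and 148, 155, 127 and 124 CPM in KO libraries. The groups did not overlap, and the log2 fold change was -0.62 ± 0.17 (adjusted p = 0.0728, edgeR), with an adjusted p of 0.0219 without floxed replicate 3. Irf7, an interferon-induced transcription factor, was at 35.3, 39.4, 47.6 and 55.1 CPM in floxed and 65.5, 56.0, 84.4 and 78.1 CPM in KO libraries, also without overlap (log2 fold change 0.68 ± 0.19, adjusted p = 0.0809). Nlrc5, the class I transactivator, had a log2 fold change of -0.63 ± 0.34 (adjusted p = 0.327) that was -0.12 (adjusted p = 0.70) without floxed replicate 3, where it was at 51.3 CPM and elsewhere at 15.6 to 24.2 CPM.

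In the other lists the genes with the smallest p did not pass either. Erap1, which trims peptides in the endoplasmic reticulum, and Calr, a chaperone of the loading complex, had log2 fold changes of -0.28 ± 0.15 and -0.27 ± 0.23. The peptidase genes Lnpep and Tpp2 had -0.70 ± 0.24 (adjusted p = 0.122) and -0.68 ± 0.37 (adjusted p = 0.314). The immunoproteasome genes Psmb8 and Psmb9, neighbours of Tap1, had 0.02 ± 0.20 and 0.01 ± 0.17. Fcgrt, the neonatal Fc receptor that pairs with B2m, was at 12.2 to 19.1 CPM in floxed and 20.2 to 33.0 CPM in KO libraries (log2 fold change 0.69 ± 0.22, adjusted p = 0.104), and H60b, a ligand of the NK receptor NKG2D, had -0.46 ± 0.19 (adjusted p = 0.199). H2-Q2 and H2-Q1 had -1.68 ± 0.83 and -0.56 ± 0.36, which became -0.49 and -0.14 without floxed replicate 3, the library where both were highest (2.27 and 39.1 CPM).

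**Figure D5:**
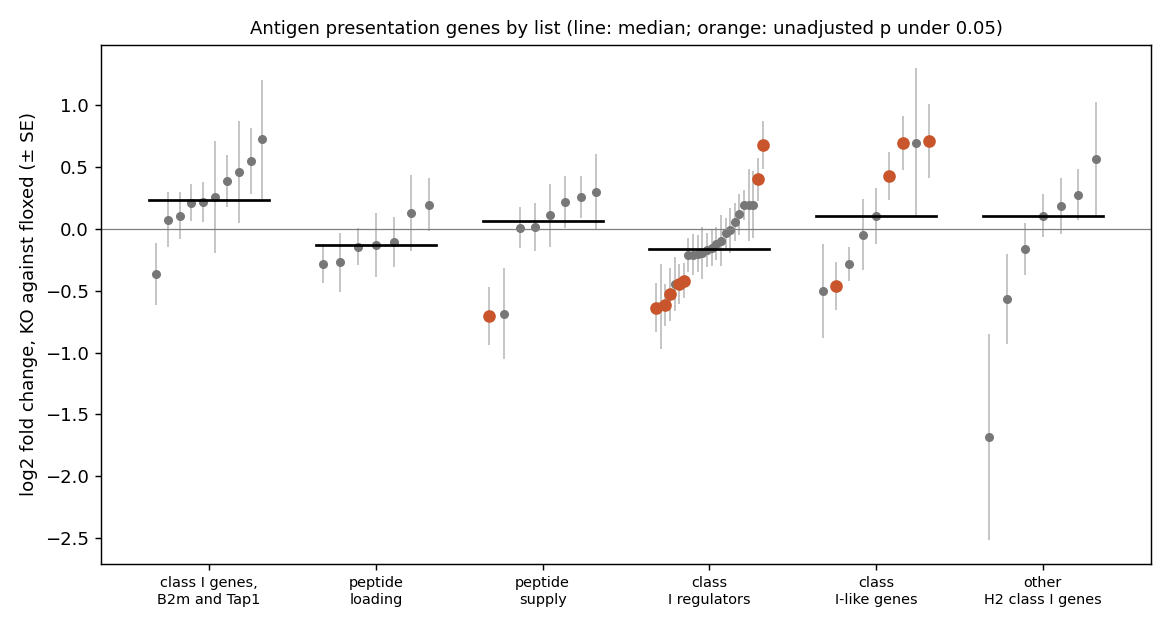
Log2 fold change of KO against floxed (points, ± SE, edgeR, all 8 libraries) for the 10 genes and the tested genes of the 5 other lists, ordered within each list, with the median as a line and genes with an unadjusted p under 0.05 in orange. No gene drawn had an adjusted p under 0.05, and the 10 genes on the left have a median of 0.24.

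The genes whose log2 CPM followed the summed heavy chain CPM most closely over the 8 libraries were H2-Ab1, Phf1, Borcs6, Bag3 and Fam221b. Pearson's r was 0.996 for H2-Ab1, a class II chain gene of the same segment (Spearman's rho 1.0), and 0.992, 0.990, 0.990 and 0.990 for the others (rho 0.929, 0.905, 0.976 and 0.929). Without floxed replicates 1 and 3, the libraries farthest from the median sum, r was 0.989, 0.959, 0.977, 0.946 and 0.964 in the same order over 6 libraries. These values were picked as the highest of all genes tested over the same 8 libraries, so no p is given. What they reflect was not tested.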

How the data were processed

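Sorted LT-HSCs gave 8 RNA-seq libraries, 1 a mouse (4 floxed, 4 KO). Per the submitters' processing notes the authors ran FastQC, Trim Galore and Bowtie 2 (GRCm38/mm10). They deposited raw counts per Ensembl transcript, with no normalization. The counting tool, strand setting and versions are not given in the sources used here. Of the 8 deposited tables of counts 7 are separated by tabs under a comma-separated name, so their unit was recorded as other, and all were checked to hold whole numbers. Of 138930 transcripts 138789 were found in GENCODE M21, and a gene's count was that of its most counted transcript over all libraries. For H2-Q4, H2-Q7 and H2-T22 this is a transcript with a retained intron. In all 57 nested pairs of transcripts of the members the outer one had at least the count of the inner one in every library, as when counts cover whole spans with introns. The study's methods instead describe alignment to reference transcripts, so whether introns were counted is not settled here. Gene totals were 23412834 to 44874883 per library, and member counts were 207 to 37751. No 2 libraries were near enough in their counts to be one library deposited again.

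Counts were filtered with filterByExpr by genotype, scaled by TMM and compared by edgeR's quasi-likelihood test (edgeR 4.0.16 under R 4.3.3), and p-values were adjusted after Benjamini and Hochberg over all genes tested. The fit was tested on simulated data. Single members were compared with an exact two-sided permutation test of log2(CPM + 1) over 70 labelings. The members, the gene lists and the marker lists were chosen with earlier results of these data known. All members were named, and of every other list the genes with an adjusted p under 0.05 and the 2 with the smallest p, further the 5 genes most like the heavy chain sum. Nlrc5, Psmb8, Psmb9 and the non-member genes of the chromosome 17 segment were named after their values had been seen. The alternatives were DESeq2 1.42.0, library totals without TMM, other filters, other transcripts, leaving out haemoglobin genes, a term for numbers 4 and 5, a block and leaving out each library. Numbers 3, 4 and 5 occur in both genotypes, in different mice. Deviations from the genotype means of libraries with the same number correlated across genes at 0.427, 0.454 and 0.707, and the pairing was fitted as a replicate block. Libraries with other numbers on the same side of 4 and 5 correlated at 0.359 to 0.711. The correlations therefore do not show a likeness particular to the shared number. Sequences came from GENCODE and RefSeq, and protein sequences were not used here.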

Additional observations from a re-analysis of the deposited data

Results flagged for a closer look

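Of 42 groups of 4 libraries (the 10 members, Ociad1 and the 10 genes with the smallest p of the other lists, in 2 genotypes), 2 held a library far from the other 3, where chance gives about 1 in 20 (2.1 of 42). H2-Q6 was at 3.80 on the log2(CPM + 1) scale in floxed replicate 3, and the other floxed libraries were at 6.23 to 6.51. Jak1 was at 8.04 in floxed replicate 1, above the other floxed libraries at 7.60 to 7.64. What sets these values apart was not tested. Leaving out floxed replicate 3 took the log2 fold change of H2-Q6 from 0.72 to 0.39. For Jak1 that fit gave -0.64, but it keeps floxed replicate 1 and cannot show how far the difference rests on that library. The other floxed libraries held Jak1 at 193 to 198 CPM and the KO libraries at 124 to 155 CPM.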

How the results depend on the processing

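The 17 alternatives gave 170 fold changes for the 10 members, of which 164 kept their direction and their side of the threshold. With library totals only, which moved the median of all genes to -0.20, H2-K1 turned to -0.13 and Tap1 to -0.087. Leaving out 1 library gave -0.027 to 0.20 for H2-K1, -0.052 to 0.54 for H2-D1, -0.0013 to 0.22 for Tap1 and -0.49 to -0.23 for B2m. The sign turned without floxed replicate 1 (H2-K1) and without floxed replicate 3 (H2-D1, Tap1). The term for numbers 4 and 5 called 1 member, H2-T23, and 12 of 55 other antigen presentation genes (18.5% of all genes). The latter count was 4 with DESeq2 (11.2%), 2 with library totals (4.15%), 1 with sums over transcripts (2.79%) and 0 to 6 with 1 library left out, the 6 without floxed replicate 3. The causes were not tested. The Ociad1 fold change was -1.75 to -1.29 with 1 library left out, its adjusted p then 0.00403 to 0.0881. With the replicate block (6 libraries), Ociad1 was at -1.56 (adjusted p = 0.0289) and 0 members and 0 other antigen presentation genes were called, so none of these calls changed, while H2-Q6 was at 1.28 (adjusted p = 0.252), H2-Q7 at 0.82 and H2-D1 at 0.62. Over all genes, 651 had an adjusted p under 0.05, against 48 with the block, 2446 with DESeq2, 4059 with the term and 3875 without floxed replicate 3. With 4 mice a genotype, intervals of the member fold changes span 0.67 to 2.14 log2 units, so modest differences could not be detected.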

Other observations

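Some H2 genes of chromosome 17 did not pass the filter on low counts and were not tested. H2-Bl, a class I pseudogene in the reference, had 182 counts in floxed replicate 3 and 1 to 11 in each of the other 7. H2-Ea-ps, the class II E alpha chain gene annotated as a polymorphic pseudogene, had 1568 counts in floxed replicate 3, 50 and 47 in floxed replicates 4 and 5, 8 in KO replicate 3, 3 in KO replicate 5 and 0 in the remaining 3 libraries. H2-Ea-ps was thus at 29.7 CPM in floxed replicate 3. Both genes lie between H2-K1 and H2-M3 but are not among the tested genes of that segment. Both were named after their values had been seen. The H2-M genes other than H2-M3, several of them known from the vomeronasal organ, were near 0, with at most 26 counts over all 8 libraries (H2-M9).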
